A study of Mus musculus with 6 samples.

Results

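The enzymes of de novo purine synthesis were examined as 10 named genes, Prps1, Ppat, Gart, Pfas, Paics, Adsl, Atic, Impdh1, Impdh2 and Gmps. All 10 were found by symbol among the 55416 genes in the files, and all 10 passed the filter on low counts. RNA was sequenced from CD3+ T cells of the spleen in wild-type C57BL/6 mice that had received an allograft, a graft from a genetically different donor (3 libraries), or an isograft, a graft from a genetically identical donor (3 libraries). Cells of both groups were held in a serum-containing medium before their RNA was extracted. The grafted organ, donor strain and times were not stated. Library totals ran from 30078504 to 34123777 counts in allograft libraries and from 30066137 to 37821738 in isograft libraries. No label says that the libraries within a group are from different mice, so the p-values speak only to variation among these libraries, and it may be technical.

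De novo purine synthesis builds the purine ring atom by atom on phosphoribosyl pyrophosphate (PRPP), an activated ribose. The pathway ends in inosine monophosphate (IMP), from which separate branches lead to the adenine and the guanine nucleotides. Resting lymphocytes cover most of their purine need by salvage of preformed bases, and dividing T and B cells depend on the de novo route. For this reason inosine monophosphate dehydrogenase is the target of mycophenolic acid, a drug given to transplant recipients to restrain lymphocytes.

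All 10 genes were higher in allograft libraries than in isograft libraries. They were called by edgeR's quasi-likelihood test, with Benjamini-Hochberg adjustment over all 14926 genes tested and a threshold of 0.05. Of the genes tested, 28.7% rose and 29.1% fell. At least 2-fold rises were seen for 6 of the 10 genes, against 10.1% of the genes tested. The median log2 fold change, allograft minus isograft, was 1.09 over the 10 genes and -0.01 over all genes tested. In each of the 10 genes every allograft library stood above every isograft library, as it did for 31.3% of the genes tested. The direction held with library totals in place of TMM (trimmed mean of M values) scaling, a change that shifted the all-gene median log2 fold change by -0.22. With totals 2973 genes were called up and 6093 down, against 4283 up and 4349 down with TMM. Levels per library are given as CPM, counts scaled to a common library size with TMM. These are bulk samples, so fewer cells of a type and less RNA per cell cannot be told apart.

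**Figure D1:**
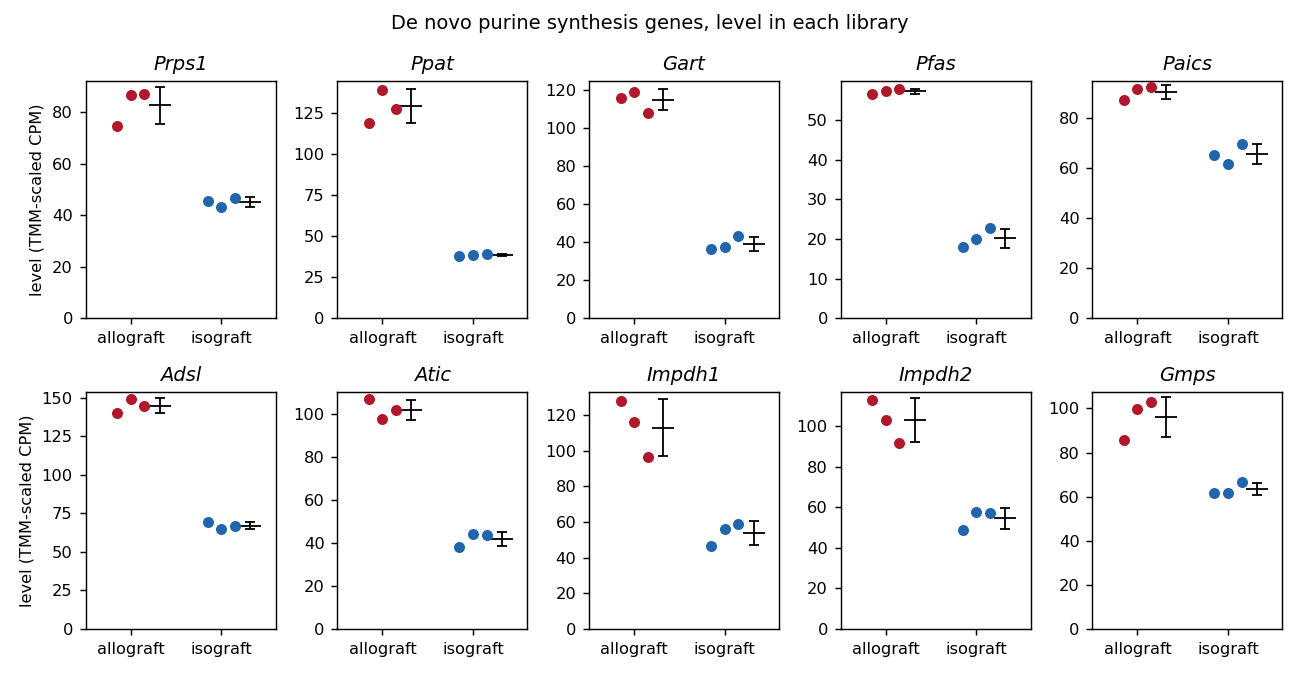
Level of each gene (CPM, TMM-scaled; vertical axis from 0) in the 3 allograft and 3 isograft libraries. Points are libraries, and bars beside them are the mean and SD. In every panel the lowest allograft library lies above the highest isograft library, with the widest gap relative to level for Ppat and the narrowest for Paics.

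Prps1 encodes a PRPP synthetase, which supplies the ribose part of every purine (ENSMUSG00000031432, chromosome X, 139357362 to 139376889, plus strand, GRCm39, the build of all gene positions given). Its level was 74.5, 86.4 and 87.1 CPM in allograft libraries, and 45.4, 43.0 and 46.6 CPM in isograft libraries. The groups were well separated, and allograft replicate 1 was the lowest of its group. The log2 fold change was 0.88 ± 0.08 (SE, taken as the absolute log2 fold change over the root of edgeR's F statistic), with an edgeR adjusted p of 1.5e-08. A related gene, Prps1l3 on chromosome 12, has a transcript 93.2% identical to that of Prps1 over 1478 bases. It drew counts of its own, at 47.7 ± 2.40 CPM in allograft libraries and 27.8 ± 0.455 CPM in isograft libraries (SD, n = 3 each), so the share of reads that belongs to each gene is uncertain. With the counts of both genes added together, the log2 fold change was 0.84.

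The other PRPP synthetase gene, Prps2, was not called in the main test. It stood at 13.0, 15.2 and 16.0 CPM in allograft libraries and at 18.3, 16.4 and 15.7 CPM in isograft libraries. These ranges overlapped, and the difference of -0.19 ± 0.11 on the log2 scale did not pass (edgeR adjusted p = 0.16). With library totals in place of TMM scaling it did pass, at -0.41 (edgeR adjusted p = 0.0046), where the median of all genes was -0.24. The ratio of Prps1 counts to Prps2 counts within a library, which does not depend on scaling, was 5.71, 5.69 and 5.45 in allograft libraries and 2.49, 2.63 and 2.97 in isograft libraries. On the log2 scale this ratio was higher by 1.06 in allograft libraries, without overlap (two-sided exact permutation test, p = 0.10). That p is the smallest that 3 libraries against 3 can give. With the counts of Prps1l3 added to those of Prps1, the log2 ratio was higher by 1.03.

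Ppat (ENSMUSG00000029246) encodes amidophosphoribosyltransferase, the enzyme of the first committed step, where glutamine gives its nitrogen to PRPP. It had 119, 139 and 127 CPM in allograft libraries, against 38, 38.6 and 38.9 CPM in isograft libraries. The isograft libraries were almost alike, and each allograft library held over 3-fold more. The gene had the largest change of the 10, a log2 fold change of 1.74 ± 0.08 or a fold of 3.34 (edgeR adjusted p = 4.2e-13), and 3.44% of the genes tested had a higher one.

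Gart and Pfas followed Ppat in size of change. Gart (ENSMUSG00000022962, chromosome 16, 91418074 to 91443840, minus strand) encodes a protein that carries several of the ring-building reactions, among them the first of the steps that take a formyl group from folate. Its level was 116, 119 and 108 CPM in allograft libraries and 36.6, 37.6 and 43.4 CPM in isograft libraries. The log2 fold change was 1.55 ± 0.08 (edgeR adjusted p = 4.3e-12). An antisense gene, Gm15964, shares 1014 exon bases with Gart, and the counting command sets no strand option. Its level of 5.02 ± 0.672 CPM in allograft libraries and 2.06 ± 0.102 CPM in isograft libraries (SD, n = 3 each) is given for that reason.

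Pfas (ENSMUSG00000020899, chromosome 11, 68876523 to 68899286, minus strand) encodes the synthase that adds the next glutamine nitrogen. It was measured at 56.6, 57.4 and 57.8 CPM in allograft libraries and at 18, 19.9 and 22.8 CPM in isograft libraries. The allograft libraries lay close together, with an SD of 0.628 CPM, and the isograft libraries were spread more widely, with an SD of 2.40 CPM. Its log2 fold change was 1.5 ± 0.09 (edgeR adjusted p = 4.2e-11).

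Paics (ENSMUSG00000029247), which encodes the carboxylase and ligase that follow in the pathway, changed least. Its level was 87.2, 91.5 and 92.4 CPM in allograft libraries and 65.2, 61.6 and 69.7 CPM in isograft libraries. The groups did not overlap, but the fold was 1.38, a log2 fold change of 0.47 ± 0.07 (edgeR adjusted p = 2.2e-05). With library totals the log2 fold change was 0.24 (edgeR adjusted p = 0.0083), which is 0.48 above the median of all genes in that fit. A higher log2 fold change was found for 25.3% of the genes tested.

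Paics and Ppat lie head to head on chromosome 5, Ppat on the minus strand (77061096 to 77099425) and Paics on the plus strand (77099154 to 77115356, GRCm39). Their annotated exons share 272 bases at the 5′ ends. Without strand, reads from that stretch cannot be assigned to either gene. The ratio of Paics counts to Ppat counts was 0.732, 0.656 and 0.725 in allograft libraries and 1.72, 1.59 and 1.79 in isograft libraries, so Paics had more counts than Ppat in every isograft library and fewer in every allograft library. On the log2 scale the ratio averaged -0.51 ± 0.09 in allograft and 0.76 ± 0.09 in isograft libraries (SD, n = 3 each). The difference of -1.27 gave p = 0.10 in a two-sided exact permutation test, again the smallest possible.

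Adsl and Atic complete the route to IMP. Adsl (ENSMUSG00000022407, chromosome 15, 80832691 to 80855147, plus strand) encodes adenylosuccinate lyase, which also acts in the branch to AMP. It reached 140.1, 149.6 and 145 CPM in allograft libraries, against 69.4, 64.9 and 67.1 CPM in isograft libraries, a log2 fold change of 1.11 ± 0.07 (edgeR adjusted p = 6.9e-11). Atic (ENSMUSG00000026192, chromosome 1, 71596309 to 71618790, plus strand) encodes the enzyme that adds the last formyl group and closes the ring. Its level was 107, 97.6 and 102 CPM in allograft libraries and 38.2, 44.1 and 43.7 CPM in isograft libraries. Both groups were tight relative to the gap between them, and the log2 fold change was 1.28 ± 0.08 (edgeR adjusted p = 4.8e-11).

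**Figure D2:**
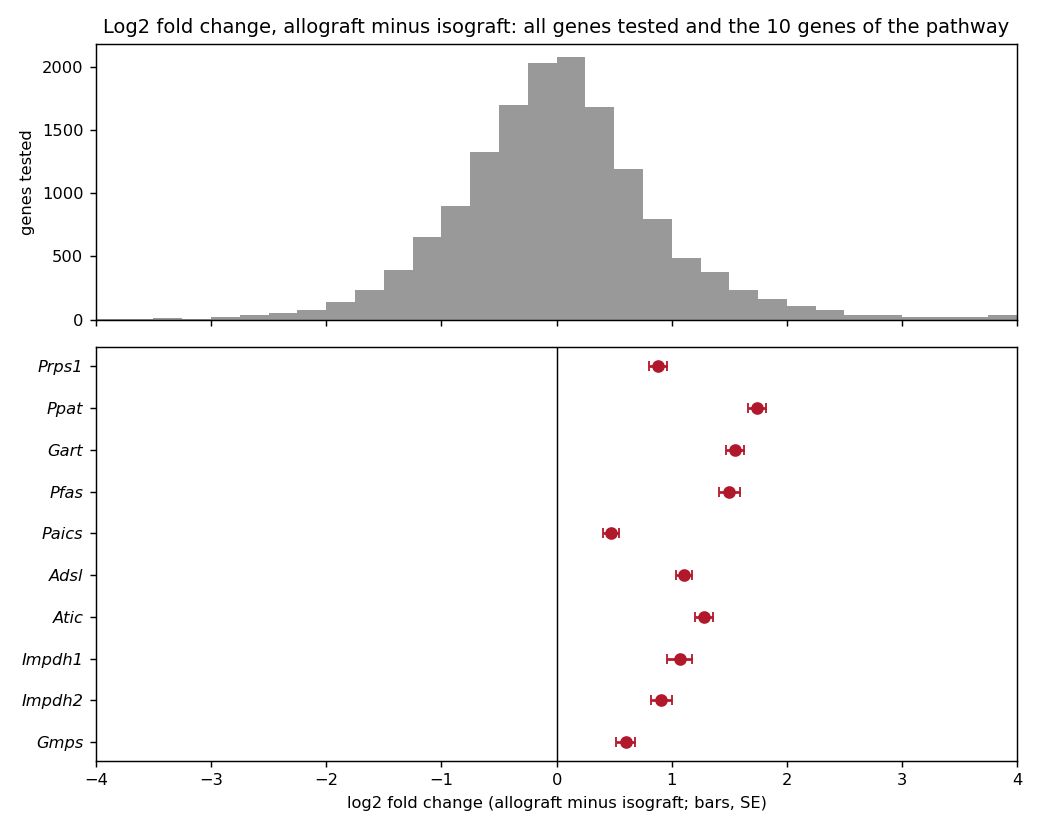
The upper panel counts genes tested (vertical axis) by log2 fold change, allograft minus isograft, in bins of 0.25, with values beyond 4 in either direction placed in the end bins. The lower panel gives the log2 fold change and SE of the 10 genes on the same axis, in pathway order, and all lie to the right of 0, from 0.47 for Paics to 1.74 for Ppat.

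The guanine branch rose as well. Impdh1 (ENSMUSG00000003500, chromosome 6, 29200433 to 29216363, minus strand) and Impdh2 (ENSMUSG00000062867, chromosome 9, 108437485 to 108442783, plus strand) encode the isozymes of inosine monophosphate dehydrogenase, which oxidises IMP in the rate-limiting step of this branch. Impdh1 had 128, 116 and 96.4 CPM in allograft libraries, against 46.4, 56.0 and 59.2 CPM in isograft libraries. Allograft replicate 1 was the highest and isograft replicate 1 the lowest of all libraries for this gene, and its SE was the largest of the 10. Its log2 fold change was 1.07 ± 0.11 (edgeR adjusted p = 4.1e-07).

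Impdh2 showed 113, 103 and 91.6 CPM in allograft libraries and 48.8, 57.9 and 57.2 CPM in isograft libraries. The allograft libraries came in the same order as for Impdh1, and isograft replicate 1 was again the lowest. Its log2 fold change was 0.91 ± 0.09 (edgeR adjusted p = 4.3e-08). A processed pseudogene, Impdh2-ps on chromosome 8, is 99.7% identical to the Impdh2 transcript over 1545 bases and was counted at 25.4 ± 5.45 CPM in allograft and 16.1 ± 2.89 CPM in isograft libraries (SD, n = 3 each). The level of Impdh2 is therefore uncertain. With both added the log2 fold change was 0.86. The counting command sets no multi-mapping option, so reads that fit both genes may be in neither count. Adding the counts does not restore such reads, here or in the ratio that follows.

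The ratio of Impdh2 to Impdh1 counts, with no correction for length, was 0.882, 0.887 and 0.951 in allograft libraries and 1.05, 1.03 and 0.965 in isograft libraries. Although these ranges did not overlap, allograft replicate 3 and isograft replicate 3 lay near each other. The difference on the log2 scale was -0.17 (two-sided exact permutation test, p = 0.10), and leaving out a library left it between -0.20 and -0.14. With the counts of Impdh2-ps added to Impdh2, an alternative added after seeing the data, the ratio was 1.13, 1.10 and 1.16 in allograft libraries and 1.36, 1.29 and 1.29 in isograft libraries, a log2 difference of -0.22 without overlap.

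Gmps (ENSMUSG00000027823, chromosome 3, 63883527 to 63930000, plus strand) encodes GMP synthetase, which uses glutamine to finish the guanine ring. It stood at 85.8, 99.6 and 103 CPM in allograft libraries and at 61.7, 61.8 and 66.5 CPM in isograft libraries. After Paics it had the smallest change, a log2 fold change of 0.60 ± 0.08 (edgeR adjusted p = 2.4e-06). With library totals this was 0.38 (edgeR adjusted p = 0.00035), or 0.62 above the median of all genes in that fit.

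**Figure D3:**
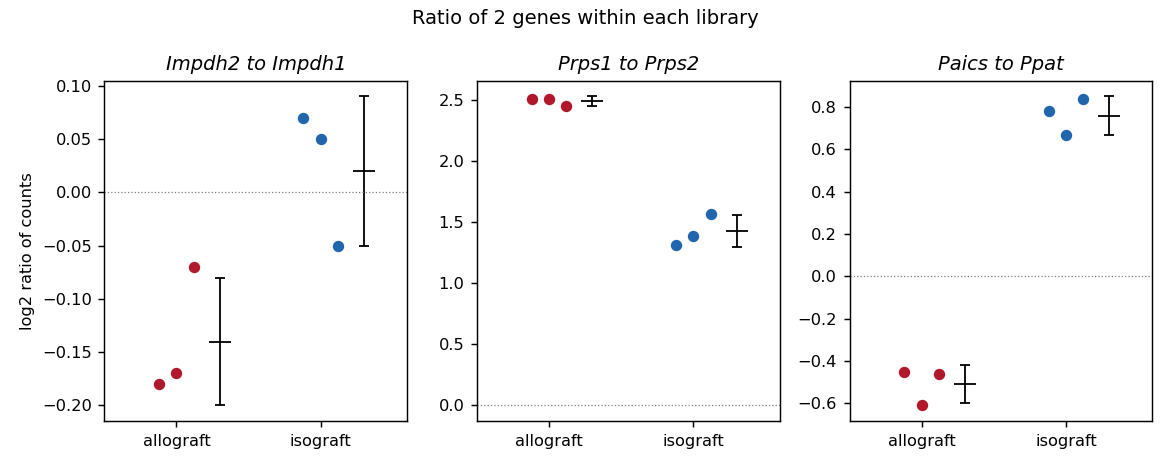
Log2 ratio of the counts of a pair of genes (vertical axis) in each of the 3 allograft and 3 isograft libraries, with the mean and SD beside the points and a scale of its own in each panel. The ratio of Prps1 to Prps2 is higher and the ratio of Paics to Ppat lower in every allograft library, while the ratio of Impdh2 to Impdh1, without the counts of Impdh2-ps, lies between -0.18 and 0.07.

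The summed level of the 10 genes was 1028, 1059 and 1011 CPM in allograft libraries and 467.6, 485.4 and 515 CPM in isograft libraries. The order of the 10 genes by level was taken per length, as TPM computed from the counts and the exon length in the files. These TPM values carry no TMM scaling, so the gaps between groups are on another scale than in the CPM values and the fold changes: Paics averaged 93.5 TPM in allograft and 79.8 TPM in isograft libraries, against 90.4 CPM in allograft and 65.5 CPM in isograft libraries. In allograft libraries the order ran from Prps1 (135 ± 14.3 TPM) through Impdh1 (112 ± 13.4), Impdh2 (108 ± 8.95), Ppat (94.5 ± 8.68), Paics (93.5 ± 4.91), Adsl (83.5 ± 4.14), Gart (72.3 ± 2.83), Atic (41.5 ± 1.53) and Gmps (38.6 ± 4.50) to Pfas (23.4 ± 0.788 TPM, each SD with n = 3). Impdh1 and Impdh2, Ppat and Paics, and Atic and Gmps were neighbours there that differed by less than the larger of their SDs.

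In isograft libraries the order was Prps1 (86.4 ± 3.93 TPM), Paics (79.8 ± 5.31), Impdh2 (67.9 ± 6.21), Impdh1 (62.5 ± 7.84), Adsl (45.5 ± 1.66), Ppat (33.3 ± 0.437), Gmps (29.9 ± 1.40), Gart (29.2 ± 2.80), Atic (20.1 ± 1.56) and Pfas (9.74 ± 1.18 TPM, each SD with n = 3). Impdh2 and Impdh1, and Gmps and Gart, could not be ordered beyond their SDs. Pfas was lowest in both groups, and Paics held place 5 in allograft libraries and place 2 in isograft libraries. The order depends on the length used. With the longest coding transcript of each gene, a choice made after seeing the data, Impdh2 led in both groups (134 ± 11.2 TPM in allograft and 84.7 ± 7.43 TPM in isograft libraries) and Ppat took place 8 in both.

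**Figure D4:**
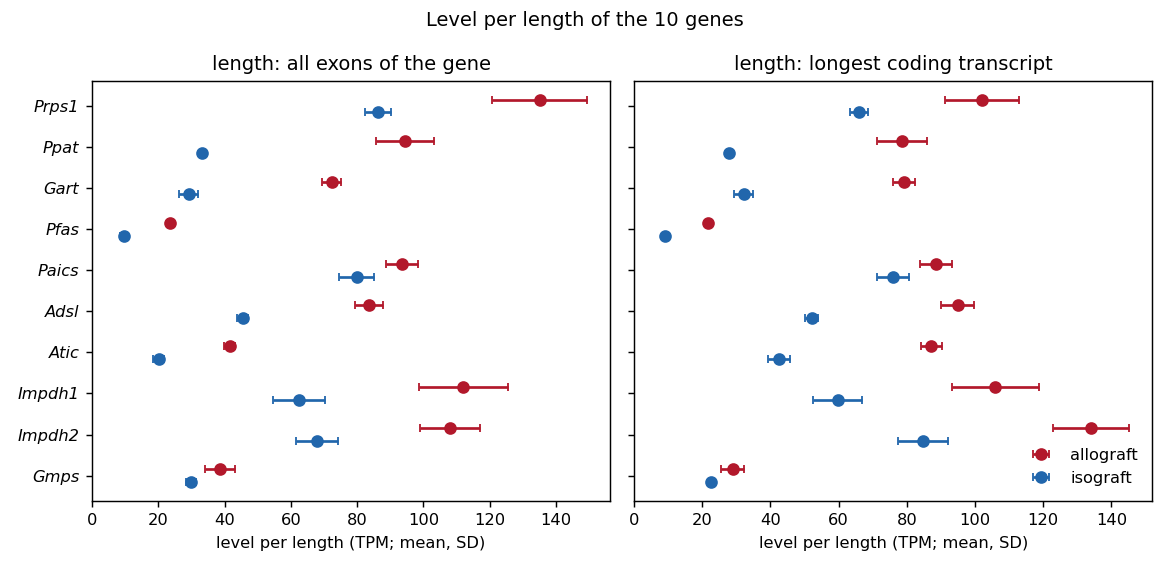
Level per length of each gene (TPM without TMM scaling, horizontal axis from 0; mean and SD of 3 libraries) in allograft and isograft libraries, with the exon length of the files on the left and the longest coding transcript on the right. Paics is the gene whose groups lie closest relative to its level, and the place of Atic and Impdh2 moves between the panels.

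The promoters of the 10 genes were read for short motifs. RefSeq promoter windows (250 bases before to 50 after a gene's start, GRCm38.p6) were given for 9 of the 10 genes, in 10 windows, since Impdh1 has 2. Pfas had no window and was not searched. Motifs were searched on both strands and include the E-box CACGTG, which MYC with its partner MAX is known to bind, and TGATGNAA, a form of the ATF4 element. CACGTG was present for Paics, Atic and Impdh2, and in 7.15% of all 32851 windows. TGATGNAA was present for Prps1, and in 3.97% of all windows. CCGGAAG was found for Ppat, Gart and Prps1 (8.86% of windows), CCAAT for Gart, Paics, Atic, Impdh2 and Prps1 (37.4%), and GGCGGG for all 9 genes (35.3%). The motifs were chosen with the results known, and a match is only a match of letters. The 3 genes with CACGTG had log2 fold changes of 0.47, 1.28 and 0.91. Ppat and Gart had none in their windows, but the Paics match lies in an annotated exon of Ppat, outside the Ppat window. The windows therefore cannot say that Ppat lacks the motif. A link between motifs and changes was not tested.

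The stretches with CACGTG in capitals are shown for those 3 genes. For Paics and Impdh2 only the 30 bases around the match are given, since they lie in annotated exons (of Ppat and of Impdh2). For Atic the 250 bases before the start are given, with the match beginning 7 bases before it. Gart is shown as a gene without CACGTG in its window, with its CCAAT in capitals. All are written 5′ to 3′ on the strand of the gene, with positions in GRCm38.p6 and not in GRCm39.
Paics, chr5:76951087-76951116, plus strand: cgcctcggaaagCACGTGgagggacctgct
Impdh2, chr9:108560314-108560343, plus strand: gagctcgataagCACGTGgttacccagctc
Atic, chr1:71556906-71557155, plus strand: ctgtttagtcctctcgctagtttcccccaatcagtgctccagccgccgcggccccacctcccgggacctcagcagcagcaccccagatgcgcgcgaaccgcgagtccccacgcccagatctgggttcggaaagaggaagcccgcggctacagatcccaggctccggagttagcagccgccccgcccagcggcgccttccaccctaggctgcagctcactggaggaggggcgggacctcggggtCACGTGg
Gart, chr16:91646973-91647222, minus strand: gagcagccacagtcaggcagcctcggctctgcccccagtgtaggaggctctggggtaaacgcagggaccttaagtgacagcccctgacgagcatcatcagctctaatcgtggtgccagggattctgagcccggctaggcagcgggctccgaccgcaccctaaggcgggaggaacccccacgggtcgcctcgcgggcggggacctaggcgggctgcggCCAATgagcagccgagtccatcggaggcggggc

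The regulators list holds Myc, Max and Atf4, the genes of the factors named with these motifs. It also holds Mnt, Mtor, Rptor, Rheb, Tfe3 and Mitf, which were not named with them. Of its 9 genes 5 rose (55.6%) and 0 fell (2 fell with library totals), against 28.7% and 29.1% of all genes tested. The median difference on the log2 scale was 0.23. This list and those below were drawn up with earlier results of these data known. Their shares are therefore not independent of those results. Myc, a transcription factor known to drive nucleotide synthesis genes, had 458, 421 and 353 CPM in allograft libraries, against 41.5, 46.7 and 46.2 CPM in isograft libraries, a log2 fold change of 3.20 ± 0.09 (edgeR adjusted p = 5.4e-15). Atf4, a transcription factor of the amino acid response, had 724, 676 and 586 CPM in allograft libraries and 227, 227 and 222 CPM in isograft libraries, a log2 fold change of 1.56 ± 0.08 (edgeR adjusted p = 2.4e-12). For Myc, Atf4, Impdh1 and Impdh2 alike, allograft replicate 1 was the highest and allograft replicate 3 the lowest of its group. That order was not particular to them. The T cell gene Thy1 (354, 295 and 231 CPM) and the B cell gene Pax5 (478, 406 and 377 CPM) had it too. For Prps1, Paics and Gmps allograft replicate 1 was the lowest. Rheb, an activator of the kinase mTOR, rose by 0.68 ± 0.09. Mnt, a repressor of the MYC network, was at 48.4 ± 6.30 CPM in allograft and 51.5 ± 7.80 CPM in isograft libraries, and Rptor, an mTOR partner, at 34.7 ± 4.11 CPM in allograft and 39.6 ± 4.95 CPM in isograft libraries (SD, n = 3 each). Neither passed in the main test, and with library totals both were called lower, at -0.31 and -0.41 (edgeR adjusted p = 0.014 and 0.0011). The median of all genes in that fit was -0.24. Rptor was also called lower, as the only regulator, without allograft replicate 1 (-0.30, edgeR adjusted p = 0.019) or isograft replicate 1 (-0.30, edgeR adjusted p = 0.022).

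The donors of formyl groups and nitrogen, which feed the ring, rose in 14 of 19 genes tested (73.7%, against 28.7% of all genes). They fell in 1 (5.26%, against 29.1%), or in 2 with library totals or without isograft replicate 2. Their median difference was 1.52 on the log2 scale. Shmt1, a serine hydroxymethyltransferase, had 84.3, 82.1 and 83.7 CPM in allograft libraries, against 10.5, 13.1 and 12.1 CPM in isograft libraries (log2 fold change 2.81 ± 0.09, edgeR adjusted p = 6.4e-15). Psat1, of serine synthesis, rose by 2.60 ± 0.09. Mthfd2, a mitochondrial enzyme of the folate cycle, rose by 2.41 ± 0.08. Got2, a mitochondrial aminotransferase, differed by 0.16 ± 0.11 (edgeR adjusted p = 0.23).

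Upstream of PRPP, the sugar phosphate list (pentose phosphate pathway) had 5 of 7 genes that rose (71.4%) and 1 that fell (14.3%), with a median of 0.37. Over all genes tested 28.7% rose and 29.1% fell. With library totals 3 genes of the list rose and 1 fell. Tkt, a transketolase, had 143, 131 and 116 CPM in allograft libraries and 65.4, 75.7 and 70.0 CPM in isograft libraries, a log2 fold change of 0.88 ± 0.08 (edgeR adjusted p = 2.8e-08). Pgd and Pgls, of the oxidative arm, rose by 0.52 ± 0.08 and 0.49 ± 0.09. G6pdx, which opens that arm, differed by 0.16 ± 0.09 and did not pass (edgeR adjusted p = 0.12). Among the PRPP synthetase genes and their partners other than Prps1, 1 of 4 tested rose (Prps1l3, described above) and 1 fell. The fall was Prpsap2, a regulatory partner, at -0.29 ± 0.09 (edgeR adjusted p = 0.014), which no longer passed when isograft replicate 1 (-0.25, adjusted p = 0.057) or isograft replicate 3 (-0.26, adjusted p = 0.056) was left out. With library totals 3 of the 4 fell. Prpsap1 differed by -0.16 ± 0.10, and by -0.38 with library totals, where it passed (edgeR adjusted p = 0.0026). The median of all genes with library totals was -0.24.

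Downstream of IMP, 6 of 11 genes tested rose (54.5%) and 2 fell (18.2%), against 28.7% and 29.1% of all genes tested, with a median of 0.72. Only 1 fell without allograft replicate 1, allograft replicate 2, isograft replicate 1 or isograft replicate 3, and with the filter of 5 CPM in 3 libraries. Adss2, the adenylosuccinate synthase that opens the adenine branch and whose values were seen before it was chosen, had 260, 275 and 282 CPM in allograft libraries and 168, 151 and 178 CPM in isograft libraries (log2 fold change 0.72 ± 0.07, edgeR adjusted p = 7.9e-08). Adss1, its paralog, fell by 1.16 on the log2 scale with an SE of 0.23 (edgeR adjusted p = 0.00027). Its level was lower, at 1.62 ± 0.27 CPM in allograft and 3.63 ± 0.564 CPM in isograft libraries (SD, n = 3 each). Ak3 also fell (-0.39 ± 0.15, edgeR adjusted p = 0.028). Nme1, a nucleoside diphosphate kinase, rose by 2.29 ± 0.16, and Ak4, a mitochondrial adenylate kinase, by 2.65 ± 0.20. Guk1, the guanylate kinase, differed by 0.22 ± 0.10 (edgeR adjusted p = 0.059), with a difference of 0.00 under library totals and 0.25, which passed, without allograft replicate 3 (edgeR adjusted p = 0.049). Nme6 differed by 0.37 ± 0.20 (edgeR adjusted p = 0.11).

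Of 8 salvage genes 3 rose (37.5%) and 3 fell (37.5%), with a median of 0.38. These shares are not far from the 28.7% and 29.1% of all genes tested. Mtap, which returns adenine from methylthioadenosine, had 89.0, 98.3 and 84.9 CPM in allograft libraries, against 27.1, 28.5 and 28.4 CPM in isograft libraries (log2 fold change 1.69 ± 0.08, edgeR adjusted p = 9.3e-13). Aprt, which salvages adenine, rose by 1.27 ± 0.11, and Hprt, which salvages hypoxanthine and guanine and was chosen after its values were seen, by 0.81 ± 0.07. Dck, the deoxycytidine kinase that salvages deoxynucleosides, had 7.05, 7.59 and 8.50 CPM in allograft libraries and 17.4, 19.7 and 19.6 CPM in isograft libraries, a fall of 1.29 on the log2 scale with an SE of 0.12. Pnp, a purine nucleoside phosphorylase, differed by 0.29 ± 0.19 and its neighbour Pnp2 by 0.46 ± 0.48, and neither passed. Without allograft replicate 1, Pnp differed by 0.50 and passed (edgeR adjusted p = 0.016), and without allograft replicate 3 it differed by 0.09. These are close copies of each other, so their counts are uncertain.

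**Figure D5:**
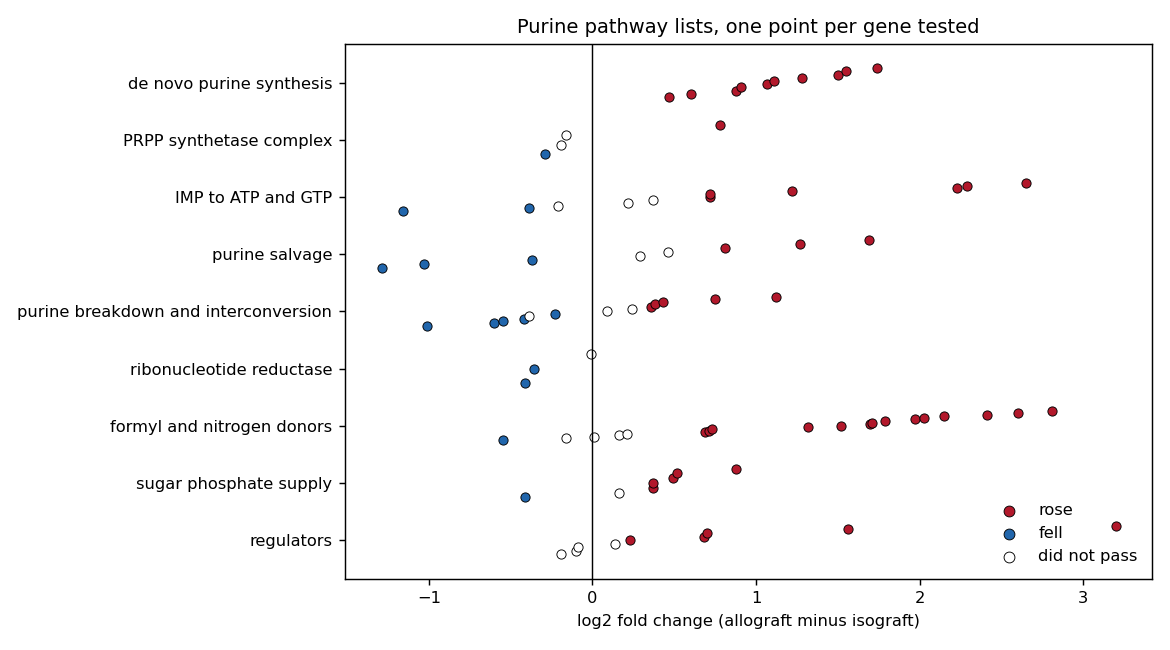
Log2 fold change, allograft minus isograft (horizontal axis), of every gene tested in the 10-gene set and in 8 lists of the surrounding pathway, 1 point per gene. Red points rose, blue points fell and white points did not pass edgeR's test at 0.05. The 10 synthesis genes and most donors of formyl groups and nitrogen lie to the right of 0, while salvage and breakdown genes lie on both sides.

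Breakdown and interconversion genes rose in 5 (38.5%) and fell in 5 (38.5%) of 13 tested, with a median of 0.09. Over all genes tested the shares were 28.7% and 29.1%. With library totals 2 rose and 6 fell, and without allograft replicate 2 the number that rose was 3. Ampd2, an AMP deaminase, rose by 1.12 ± 0.11. Samhd1, which degrades deoxynucleoside triphosphates, was at 1421 ± 87.8 CPM in allograft and 2078 ± 66.9 CPM in isograft libraries (SD, n = 3 each), a log2 fold change of -0.55 ± 0.07 (edgeR adjusted p = 1.5e-06). The nucleotidase gene Nt5c fell by 0.60 on the log2 scale. Nt5c3b differed by 0.09 ± 0.10 and Gmpr2, a GMP reductase, by 0.24 ± 0.15, and neither passed.

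Ribonucleotide reductase, which turns ribonucleotides into DNA precursors, had no gene that rose and 2 of 3 that fell. Over all genes tested 28.7% rose and 29.1% fell. Rrm1, the large subunit, had 101, 112 and 119 CPM in allograft libraries and 112, 107 and 115 CPM in isograft libraries, with groups that overlapped and a difference of -0.01 ± 0.08 (edgeR adjusted p = 0.94). With library totals Rrm1 was called lower, at -0.23 (edgeR adjusted p = 0.014), but the median of all genes in that fit was -0.24. Rrm2b, an alternative small subunit, fell by 0.41 on the log2 scale (edgeR adjusted p = 0.0026). Rrm2, the small subunit of cycling cells, differed by -0.36 ± 0.13 (edgeR adjusted p = 0.026), which no longer passed when allograft replicate 3 (-0.32, adjusted p = 0.071), isograft replicate 2 (-0.34, adjusted p = 0.077) or isograft replicate 3 (-0.28, adjusted p = 0.13) was left out.

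Markers of the cells were measured beside these results. As background to the counts of markers, 28.7% of all genes tested rose and 29.1% fell. The 14 T cell markers summed to 2257, 2064 and 2127 CPM in allograft libraries and to 2246, 2325 and 2249 CPM in isograft libraries. The 5 that rose were Trac (0.72 ± 0.08), Cd5 (1.38 ± 0.08), Cd6 (0.60 ± 0.08), Zap70 (1.18 ± 0.07) and Thy1 (0.63 ± 0.17). The 5 that fell were the CD3 chain genes Cd3e (-0.63 ± 0.09), Cd3d (-0.78 ± 0.07), Cd3g (-0.58 ± 0.07) and Cd247 (-1.35 ± 0.07), and Cd28 (-0.31 ± 0.10). B cell transcripts were present in this CD3+ fraction, where 13 markers summed to 1944 to 2060.1 CPM in allograft and 1804 to 1903 CPM in isograft libraries, with 4 that rose and 6 that fell. Fcer2a, the low-affinity IgE receptor, had the largest change of these, at 378 ± 22.6 CPM in allograft and 52.8 ± 0.951 CPM in isograft libraries (SD, n = 3 each). Without it, chosen after its values were seen, the other 12 markers summed to 1592 to 1670.1 CPM in allograft and 1751 to 1849.6 CPM in isograft libraries, so the direction of the sum turned. Myeloid markers summed to 306.1 to 319.8 CPM in allograft and 306.5 to 312 CPM in isograft libraries (1 of 10 rose, 3 fell), and plasma cell markers to 99.7 to 110.8 CPM in allograft and 105.7 to 116.2 CPM in isograft libraries (2 of 5 rose, 1 fell). Genes of cycling cells summed to 861.5 to 928.2 CPM in allograft and 771.4 to 781.6 CPM in isograft libraries. The sum was higher although more of these genes fell than rose. Of the 14, 3 rose: Pcna (0.77 ± 0.07), Mcm5 (0.55 ± 0.08) and Tk1 (1.70 ± 0.08). Those that fell were 5: Top2a (-0.22 ± 0.07), Ccnb1 (-0.80 ± 0.17), Ccnb2 (-1.07 ± 0.19), Birc5 (-0.65 ± 0.11) and Rrm2 (-0.36 ± 0.13). Mki67 differed by -0.08 ± 0.08 and did not pass (edgeR adjusted p = 0.39). None of these markers was at 0 in all 6 libraries. The part of the cell mixture in the rise of the purine genes was not tested.

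The genes whose profile over the 6 libraries lay closest to the mean profile of the 10 genes were named by the root mean square distance of centred log2 CPM, among genes with at least 5 CPM. They were Kpnb1, a nuclear import receptor (distance 0.0289), Mars, the methionyl-tRNA synthetase (0.0321), Slc39a6, a zinc transporter (0.0340), Naa20, an N-terminal acetyltransferase subunit (0.0361), and Set, a histone chaperone (0.0405). Kpnb1 had 745, 745 and 752 CPM in allograft libraries and 334, 349 and 381 CPM in isograft libraries. Within the 10 genes the distances to their own mean ran from 0.066 for Adsl to 0.326 for Paics. The 5 genes were picked as the nearest of 8738 searched, with predicted genes left out, and the 10 were not picked for nearness. The smaller distances of the 5 therefore say nothing about the 10. The distances rest on 6 libraries in 2 groups, and the 5 genes had log2 fold changes from 1.08 to 1.14, near the median of the 10.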

How the data were processed

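Counts of fragments over exons, summed per Ensembl gene, were made by the authors with featureCounts 1.6.0 on the Ensembl release 104 annotation of GRCm39, per the file headers, from alignments whose file names carry the word hisat. The deposited numbers are raw counts. GRCm38 and mm10 appear in the submitters' processing notes. Of the 10 genes 9 have intervals in the files that do not overlap their GRCm38 intervals, so positions from the files are GRCm39. The headers' command sets no strand and no multi-mapping option. Symbols matched 93.99% of gene IDs, and Adss1 and Adss2 through synonyms. The exon length in the files is another deposited column, per the file headers.

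Genes were kept by edgeR's filterByExpr (14926 genes, 99.92% of counts), scaled by TMM and tested with the robust quasi-likelihood test (R 4.3.3, edgeR 4.0.16, limma 3.58.1, and DESeq2 1.42.0 as an alternative). CPM are counts over TMM-scaled totals. Pair ratios were tested by exact permutation. Copies were sought with blastn 2.17.0 (at least 90% identity over 200 bases), and promoter windows are RefSeq's. Within groups log2 levels correlated at 0.986 to 0.990, and no pair of libraries differed by as little as sampling noise. Members, lists and motifs were chosen with earlier results of these data known. Named from each list were up to 3 called genes with the smallest p and up to 2 others with the highest level, plus Myc and Atf4; some genes this rule names are not reported here. Alternatives were RLE scaling, library totals, DESeq2, non-robust estimation, no filter, a filter of 5 CPM in 3 libraries, a replicate block, omission of each library, omission of genes for immunoglobulins, hemoglobins and mitochondrial RNA, a length offset and, chosen after seeing the data, near-identical copies added and the B cell marker sum without Fcer2a.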

Additional observations from a re-analysis of the deposited data

How the results depend on the processing

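All 10 purine synthesis genes remained called upward under each of the 16 alternatives, with log2 fold changes from 0.24 to 0.51 for Paics, 0.38 to 0.67 for Gmps and 1.52 to 1.79 for Ppat, and the lowest values came with library totals. Counts over all genes stayed within 1.5 times of the main test. Leaving out a library moved Paics between 0.42 and 0.51, the Prps1 to Prps2 log2 ratio between 1.01 and 1.14, and the Paics to Ppat log2 ratio between -1.32 and -1.22. Replicate numbers did not pair the libraries (correlations of deviations of -0.06, 0.00 and -0.03 for the same number), and with the number as a replicate block 4064 genes rose and 4152 fell, all 10 genes stayed called and Rrm2 was lost (-0.35, edgeR adjusted p = 0.05). Among the genes reported, those that missed the threshold and changed sign were Rrm1 (0.00 with RLE scaling and DESeq2, 0.07 with the length offset, and from -0.07 to 0.05 over the omitted libraries) and, with library totals, Guk1 (0.00), Nt5c3b (-0.13), Got2 (-0.06) and G6pdx (-0.06). Library totals shifted the all-gene median log2 fold change by -0.22, and Guk1, Nt5c3b, Got2 and G6pdx moved about as much. The cause of the rise of the 10 genes was not tested.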
